A study of Mus musculus with 3 samples.

Results

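Elastic fibres are made of an elastin core laid down on a scaffold of fibrillin microfibrils, and they let a tissue stretch and recoil. Fibrillin-1 builds the microfibril, the small microfibril-associated glycoproteins attach to it, fibulins and fibulin-like proteins link elastin, microfibrils and the cell surface, and enzymes of the lysyl oxidase family cross-link the elastin. Microfibrils also hold latent TGF-beta in the matrix, and in fat such matrix genes are expressed mainly by stromal fibroblasts and adipocyte progenitor cells. The 10 genes described here were the structural gene Fbn1 (fibrillin-1), the elastin gene Eln, the microfibril-associated genes Mfap4 and Mfap5, and the fibulin family genes Fbln1, Fbln2, Fbln5, Fbln7, Efemp1 (fibulin-3) and Efemp2 (fibulin-4). They were chosen by name from the 32285 genes of the count files, and all 10 passed the filter on low counts in every comparison.

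The cells came from the subcutaneous inguinal fat of 3 wild-type (WT) C57BL/6J male mice, 8 weeks old, with 1 droplet library of 3′ ends per mouse and no treatment or second genotype. They were CD31- CD45- cells sorted from the stromal vascular fraction (SVF), the cells left after collagenase digestion and removal of floating adipocytes, so the sort removed most endothelial cells and leukocytes. After cells with more than 500 genes and under 5% mitochondrial UMIs (unique molecular identifiers, each counting 1 captured RNA molecule) were kept, 12984, 6414 and 15179 cells remained in mice 1, 2 and 3, with medians of 7392.5, 12192.5 and 6667 UMIs. The question was how expression of these genes differed between stromal cell classes of 1 fat pad, so the mouse was the replicate and the cells of a class were summed within each mouse.

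Classes were set by raw UMIs of marker genes that are not among the 10. Progenitor cells had at least 3 UMIs of Dpp4 and Pi16 together and at most 1 of Icam1 and Fabp4. Preadipocytes (PreAs) had at least 4 UMIs of Icam1 and Fabp4 together and at most 1 of Dpp4. Regulatory cells, named after stromal cells known to restrain adipogenesis, had at least 1 UMI each of Clec11a and Fmo2 and at most 1 each of Fabp4 and Dpp4. Cells of the Cilp/Myoc gate had at least 3 UMIs of Cilp and Myoc together and at most 1 of Icam1 and Fabp4. Over the 3 mice the progenitor gate held 19931 of 34577 cells, the PreA gate 5735, the regulatory gate 1322 and the Cilp/Myoc gate 1594, and 20.5% to 23.0% of the cells of a mouse fell in no gate. The Cilp/Myoc gate was mostly a subset of the progenitor gate: 87.2%, 89.5% and 95.3% of its cells in mice 1, 2 and 3 met both definitions, and both gates counted them. Of the regulatory cells, 6.90%, 18.9% and 11.4% were also in the PreA gate and 8.46%, 4.77% and 7.8% in the progenitor gate.

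The names were checked on marker genes that the gates did not use. All 6 other progenitor markers (such as Cd55 and Wnt2) were higher and all 6 other PreA markers (such as Pparg and Lpl) lower in progenitors than in PreAs, and all 5 other regulatory markers (such as F3 and Gdf10) were higher in regulatory cells than in progenitors. Against PreAs, 4 of these 5 were higher in regulatory cells and Meox1 was lower. In the Cilp/Myoc gate, 4 of 5 tested tendon and fascia fibroblast markers were higher than in progenitors, as were 4 of 5 regulatory markers and 2 of 6 tested mural markers, and 2 of 6 progenitor markers were lower. Summed endothelial markers reached 4.17 to 57.0 CPM (UMIs of a gene over all UMIs of a sum, on the counts-per-million scale) in the PreA gate against 2.61 to 8.53 CPM in progenitors, summed mural markers 30.8 to 50.9 against 8.48 to 10.6, and 8 genes of the response to tissue dissociation 13938 to 18066 against 7219 to 10133. Their part in the results was not tested. Leaving out cells with at least 3 UMIs of Pecam1 and Cdh5 changed no member's call. Only 33, 31 and 6 kept cells of mice 1, 2 and 3 met that cut, so this could not show what part endothelial RNA had. It did not address the mural or dissociation genes.

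The members lie on 7 chromosomes (GRCm38, GENCODE annotation): Fbn1 at chr2:125300594-125507993 and Fbln7 at chr2:128862981-128897034, Eln at chr5:134702593-134747323, Fbln2 at chr6:91212455-91272540 and Mfap5 at chr6:122505845-122529290, Efemp1 at chr11:28853204-28926743 and Mfap4 at chr11:61485431-61488900, Fbln5 at chr12:101746565-101819055, Fbln1 at chr15:85205949-85286535, and Efemp2 at chr19:5473954-5482517. All are protein-coding and none shares an exon with another gene on its own strand. Fbn1, Eln, Efemp2 and Mfap4 overlap exons of a gene on the other strand, and whether the counting used strand was not given in the sources used here.

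RefSeq promoter entries (GRCm38.p6) were found for 7 of the 10 members and not for Eln, Mfap4 and Mfap5. The 250 bases before the start are shown for 3 members whose expression differed most in kind among the classes: Efemp1, highest in progenitors, Fbln7, highest in PreAs, and Fbln1, highest in the Cilp/Myoc gate and in regulatory cells. The windows are chr11:28852955-28853204 on the plus strand for Efemp1, chr2:128863682-128863931 on the plus strand for Fbln7 and chr15:85205699-85205948 on the plus strand for Fbln1. The Fbln1 window ends at the base before the annotated gene, the Efemp1 window ends at the gene's first base, and the Fbln7 window lies within the gene's annotated span but outside its exons. Capitals mark matches, on either strand, to letters searched in each window, namely the CCAAT box with the letters CCAAT, the GC box with the letters GGGCGG, the TATA box with the letters TATAAA, the AP-1 site with the letters TGANTCA, the TEAD site with the letters CATTCC and the E-box with the letters CACGTG.
Efemp1: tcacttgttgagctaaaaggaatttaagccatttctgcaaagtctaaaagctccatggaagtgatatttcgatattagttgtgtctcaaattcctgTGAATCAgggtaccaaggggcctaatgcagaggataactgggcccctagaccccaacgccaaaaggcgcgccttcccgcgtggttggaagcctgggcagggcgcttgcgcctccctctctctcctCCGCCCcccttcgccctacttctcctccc
Fbln7: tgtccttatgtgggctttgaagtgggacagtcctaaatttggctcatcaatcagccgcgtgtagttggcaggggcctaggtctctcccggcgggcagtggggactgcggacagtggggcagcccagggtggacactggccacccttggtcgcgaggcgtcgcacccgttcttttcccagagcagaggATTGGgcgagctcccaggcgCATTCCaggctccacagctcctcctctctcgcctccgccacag
Fbln1: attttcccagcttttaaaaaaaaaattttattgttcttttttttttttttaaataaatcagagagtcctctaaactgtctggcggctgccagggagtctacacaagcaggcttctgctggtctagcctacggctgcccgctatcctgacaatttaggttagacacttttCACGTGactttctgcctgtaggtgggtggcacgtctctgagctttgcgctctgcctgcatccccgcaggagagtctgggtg
The Efemp1 window held 1 GC box and 1 AP-1 match, the Fbln7 window 1 CCAAT box and 1 TEAD match, and the Fbln1 window 1 E-box. Another Fbln1 entry, not shown, has the window chr15:85205758-85206007 and held 1 GC box and 1 E-box. Among 32851 promoter entries of the same length, 32.7% held a GC box, 6.75% an AP-1 match, 33.8% a CCAAT box, 12.6% a TEAD match and 6.02% an E-box. A match of letters describes the sequence and does not mark a bound site.

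Fbn1 and Mfap5 were the members most strongly tied to the progenitor gate. Fbn1 was 2163, 1428 and 2289 CPM in the progenitors of mice 1, 2 and 3 and 608, 423 and 656 CPM in their PreAs. Mouse 2 was the lowest of the 3 in both gates, and the progenitor and PreA values did not overlap. The fitted difference was 1.83 ± 0.09 on the log2 scale (SE; 3.56-fold higher in progenitors; adjusted p = 9.47e-10, by the quasi-likelihood test of edgeR, adjusted over all tested genes by Benjamini-Hochberg, as are the other adjusted p-values). Mfap5, whose product binds fibrillin microfibrils, was 1865, 2055 and 1945 CPM in progenitors and 577, 615 and 554 CPM in PreAs, again without overlap (log2 difference 1.78 ± 0.08, adjusted p = 1.86e-10). In regulatory cells Fbn1 was 695, 398 and 520 CPM, overlapping the PreA values. Mfap5 was 539, 496 and 470 CPM there, lower than in PreAs in 3 of 3 mice and without overlap. The regulatory-to-PreA differences, -0.01 ± 0.09 for Fbn1 and -0.15 ± 0.08 for Mfap5 on the log2 scale, did not pass the test (adjusted p = 0.981 and 0.170). The call for Mfap5 depended on the setting, with adjusted p-values of 0.0382 when cells in several gates were left out, 0.0422 with library size only, 0.0201 without the filter on low counts and 0.0448 without mouse 1.

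**Figure D1:**
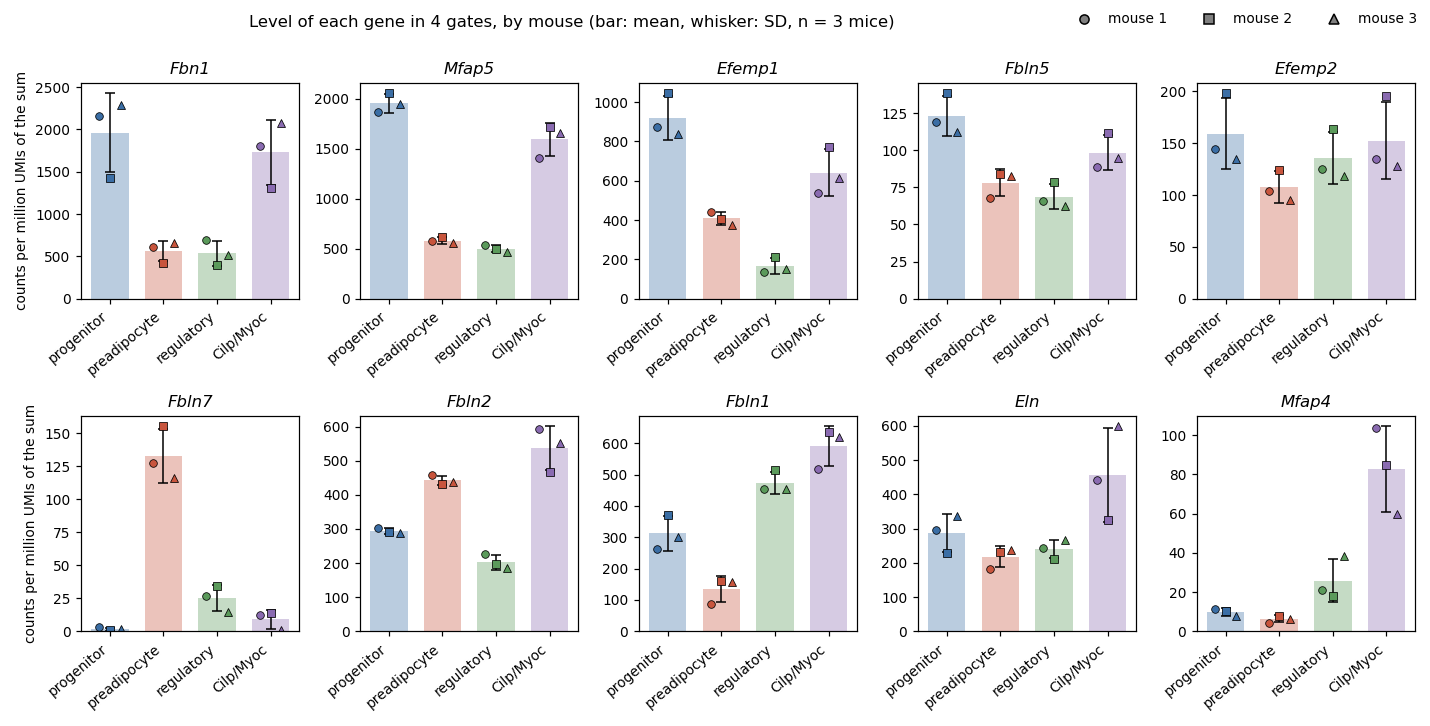
Level of each of the 10 genes in the 4 gates; the y axis is the CPM of the summed cells, bars are means, whiskers SDs and points the 3 mice. Fbn1, Mfap5 and Efemp1 are highest in the progenitor and Cilp/Myoc gates, Fbln7 in the preadipocyte gate (116 to 155 CPM), and Mfap4 in the Cilp/Myoc gate (59.9 to 104 CPM).

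All 10 members were called between progenitors and PreAs, 8 higher and 2 lower in progenitors, against a background of 30.1% of the 12558 tested genes called higher and 29.7% called lower. The median size of the members' log2 difference was 0.94, against 0.34 over all tested genes. Beside Fbn1 and Mfap5, the genes higher in progenitors were Fbln1 (1.27 ± 0.13), Efemp1 (1.19 ± 0.10), Fbln5 (0.69 ± 0.07), Mfap4 (0.67 ± 0.25), Efemp2 (0.59 ± 0.06) and Eln (0.41 ± 0.13). Efemp1, a fibulin-like glycoprotein, was 875, 1044 and 836 CPM in progenitors and 443, 407 and 376 CPM in PreAs. Fbln5, which binds elastin and integrins and is needed for elastic fibre assembly, was 119, 138 and 112 CPM against 67.9, 83.8 and 82.8 CPM. Efemp2, which brings lysyl oxidase to elastin, was 145, 198 and 135 CPM against 104, 124 and 94.9 CPM. In each of these genes the 2 groups did not overlap.

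Eln and Mfap4 were the weakest of the 8. Eln was 296, 228 and 337 CPM in progenitors and 183, 232 and 238 CPM in PreAs, so it was higher in 2 of 3 mice and the groups overlapped (adjusted p = 0.0170; 0.202 without mouse 1 and 0.113 without mouse 3). Mfap4 was 11.5, 10.4 and 7.64 CPM against 4.47, 8.01 and 6.47 CPM (adjusted p = 0.0341; 0.312 without mouse 1). Its direction depended on the cells shared with the Cilp/Myoc gate: with those cells taken out of the progenitor sums the difference was -0.83 ± 0.28 (adjusted p = 0.0198), lower in progenitors. The PreA gate shared 0 cells with the Cilp/Myoc gate, where Mfap4 was highest, so only progenitors lost such cells. A fall in the difference was therefore built in, and its p-value does not compare like cells.

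Fbln7 and Fbln2 were the exceptions. Fbln7, a cell adhesion protein of the fibulin family, was 3.04, 0.85 and 1.40 CPM in progenitors, from 164, 33 and 87 UMIs, and 127, 155 and 116 CPM in PreAs. The progenitor gate was lower by -6.14 ± 0.29 on the log2 scale (adjusted p = 4.52e-10), a change larger than that of 99.9% of the tested genes. Fbln2, which links elastin and fibrillin to basement membrane proteins, was 304, 292 and 288 CPM in progenitors and 458, 432 and 439 CPM in PreAs (-0.55 ± 0.07, adjusted p = 1.80e-05). The mice lay close together for Fbln2 in both gates but spread widely for Fbln7 in progenitors, and the gates did not overlap in either gene.

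**Figure D2:**
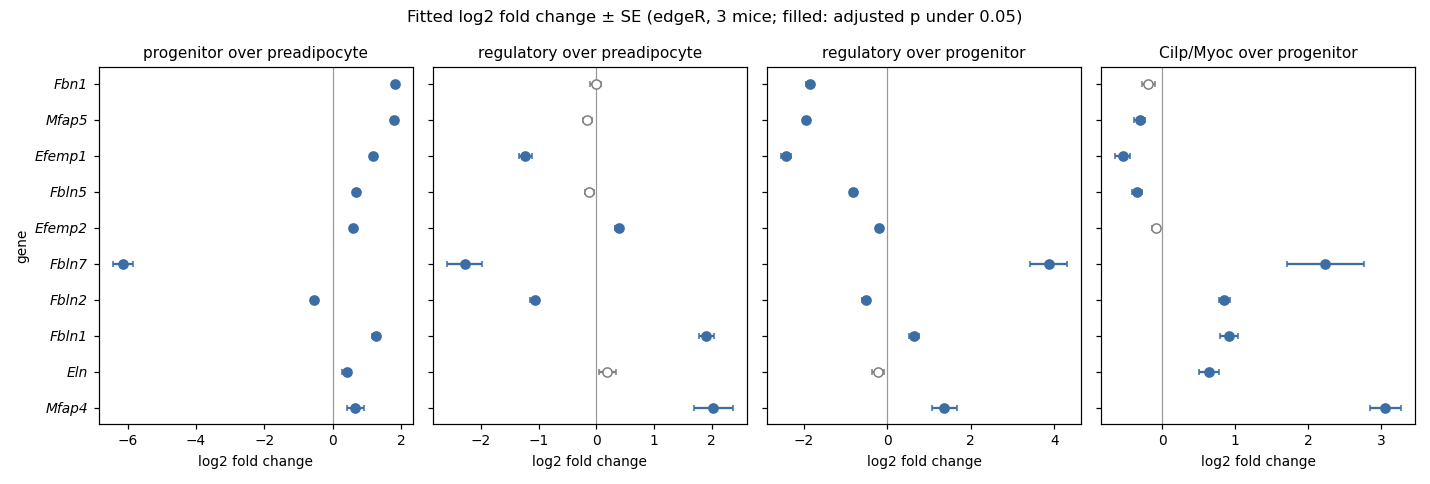
Fitted log2 fold change of each gene in 4 comparisons of gates; points are estimates, whiskers SEs over the 12 sums, and open points did not pass the test. Fbln7 lies at -6.14 for progenitor over preadipocyte, and Mfap4 at 3.06 for Cilp/Myoc over progenitor.

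Regulatory cells combined low progenitor-type members with high Fbln1. Mfap4 was called higher too, but rested on few cells. Against progenitors, 3 members were higher and 6 lower, with 22.7% of all tested genes called higher and 24.5% lower. The 8 dissociation genes were all higher in regulatory cells (13621 to 15584 CPM against 7219 to 10133), as were 3 of 3 tested epithelial markers (sums of 0 to 112 CPM against 0.093 to 8.04), and their part in the result was not tested. Efemp1 differed most of the lower ones, at 135, 214 and 153 CPM (-2.42 ± 0.11 against progenitors, adjusted p = 1.17e-09), and it was lower than in PreAs too (-1.23 ± 0.11, adjusted p = 1.80e-06). Mfap5 (-1.94 ± 0.08), Fbn1 (-1.84 ± 0.10), Fbln5 (-0.81 ± 0.08), Fbln2 (-0.52 ± 0.08) and Efemp2 (-0.20 ± 0.06) were the other members lower than in progenitors, while Eln did not pass the test (-0.22 ± 0.14, adjusted p = 0.232). The call of Efemp2 was lost when cells in several gates were left out (adjusted p = 0.138), when cells were thinned to 3000 UMIs (0.386), with stricter gates (0.0546) and without mouse 2 (0.107) or mouse 3 (0.0579). It held in 10 of 16 alternatives, and the highest adjusted p was 0.566.

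Fbln1, which binds fibronectin and elastin, was 452, 515 and 453 CPM in regulatory cells against 264, 371 and 302 CPM in progenitors and 85.8, 161 and 158 CPM in PreAs. No mouse's regulatory value fell inside the range of the other 2 gates, and Fbln1 was higher by 0.64 ± 0.13 than in progenitors (adjusted p = 0.000959) and by 1.91 ± 0.13 than in PreAs (adjusted p = 1.54e-07). Against PreAs, 3 members were higher (Mfap4, Fbln1 and Efemp2) and 3 lower (Fbln7, Efemp1 and Fbln2), with 14.5% of all tested genes called higher and 13% lower, and Fbn1, Eln, Fbln5 and Mfap5 did not pass. Mfap4, a microfibril-associated protein with a fibrinogen-like domain, was 21.1, 18.1 and 38.2 CPM in regulatory cells (2.03 ± 0.34 over PreAs, adjusted p = 0.000480; 1.36 ± 0.30 over progenitors, adjusted p = 0.00210). It rested on few cells: 5, 7 and 8 regulatory cells had at least 3 Mfap4 UMIs, and in regulatory cells that met no other gate it was 3.53, 7.38 and 34.7 CPM. In mice 1 and 2 these values were below those of the whole PreA and progenitor gates, and only mouse 3 was above both. With cells in several gates left out the fitted Mfap4 difference over PreAs was 1.42 (adjusted p = 0.0211). Fbln7 was intermediate at 26.8, 34.3 and 14.9 CPM, lower than in PreAs by -2.28 ± 0.31 (adjusted p = 7.44e-05) and higher than in progenitors by 3.86 ± 0.43 (adjusted p = 6.13e-06). Regulatory cells were shallower than the others, with medians of 5160, 10957 and 4815 UMIs. Thinning every cell to 3000 UMIs, which left out 67, 42 and 123 of the regulatory cells, kept the calls of Fbln1, Mfap4 and Fbln7 in both comparisons.

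Fbln7 was the member most concentrated in the PreA gate. Mfap4 was detected in fewer cells, 1.44% of all kept cells thinned to 3000 UMIs against 8.05% for Fbln7. At 3000 UMIs per cell Fbln7 was detected in 28.4% of PreAs on average over mice (24.8% to 32.8%), in 6.03% of regulatory cells and in 0.45% of progenitors. Unthinned, these shares were 49.1%, 10.9% and 1.01%. PreAs held 69.7% of all Fbln7 UMIs of a mouse on average (62.5% to 77.2%) but 19.6% of the UMIs of all genes, and cells in no gate held another 24.7%. Progenitors held 74.7% of Fbn1 UMIs and 76.0% of Mfap5 UMIs, against 56.2% of the UMIs of all genes.

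Fbn1 and Mfap5 were detected in most cells of every gate, 97.8% and 97.1% of thinned progenitors, 73.0% and 74.6% of PreAs and 69.1% and 70.9% of regulatory cells. As a reference, cells of another type were taken, which may express some of these genes themselves. The few cells with at least 3 UMIs of Pecam1 and Cdh5 (33, 31 and 6 cells with medians of 4201, 1999 and 5295.5 UMIs, of which 19, 8 and 5 could be thinned) had a Fbn1 UMI in 52.9% (25.0% to 73.7%) and a Mfap5 UMI in 62.7% (25.0% to 100%). These cells also held progenitor markers at 1085 to 2862 CPM and PreA markers at 926 to 4157 CPM, so they were not free of stromal RNA. The PreA and regulatory means lay above these shares but within their range, so presence of a UMI alone did not set the gates apart from this reference for these 2 genes. Efemp1 was found in 29.1% of thinned regulatory cells and 33.3% of thinned endothelial cells, where it ranged from 12.5% to 47.4% over mice, so presence of an Efemp1 UMI in regulatory cells was not above that reference. Fbln7 was found in 1.75% of the thinned endothelial cells on average.

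Fbn1, Mfap5, Efemp1, Fbln5 and Fbln7 were ordered in steps along Dpp4 and Pi16. Among cells thinned to 3000 UMIs with at most 1 UMI of Icam1 and Fabp4, mean Fbn1 over mice went from 733 CPM in cells with 0 UMIs of Dpp4 and Pi16 to 1048, 1504, 1790 and 1953 CPM in cells with 1, 2, 3 to 4 and 5 or more. Mfap5 went from 639 to 2028 CPM and Efemp1 from 363 to 935 CPM over the same bins, while Fbln7 went from 56.3 to 2.13 CPM. Eln, Fbln1, Fbln2, Efemp2 and Mfap4 did not follow Dpp4 and Pi16 in order. Fbln1 went from 300 CPM at 0 UMIs to 191 CPM at 3 to 4 and was 336 CPM at 5 or more.

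Along Icam1 and Fabp4, in cells with at most 1 Dpp4 UMI, Fbln7 went from 20.7 CPM at 0 UMIs to 49.2, 80.7, 122 and 159 CPM, and Fbln2 from 292 to 455 CPM. Fbn1 went from 1464 to 494 CPM and Fbln1 from 300 to 85.5 CPM over these bins. Along Cilp and Myoc, Mfap4 was 4.18, 33.7, 24.0, 87.1 and 195 CPM over the 5 bins, and Eln went from 266 to 700, Fbln1 from 285 to 770 and Fbln2 from 281 to 739 CPM. Efemp1 went from 805 to 470 CPM over these bins, while Fbn1 stayed between 1539 and 1716 CPM. These bins are descriptions without a test, each bin held at least 69 cells in every mouse, and they were added after the gate results were seen.

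**Figure D3:**
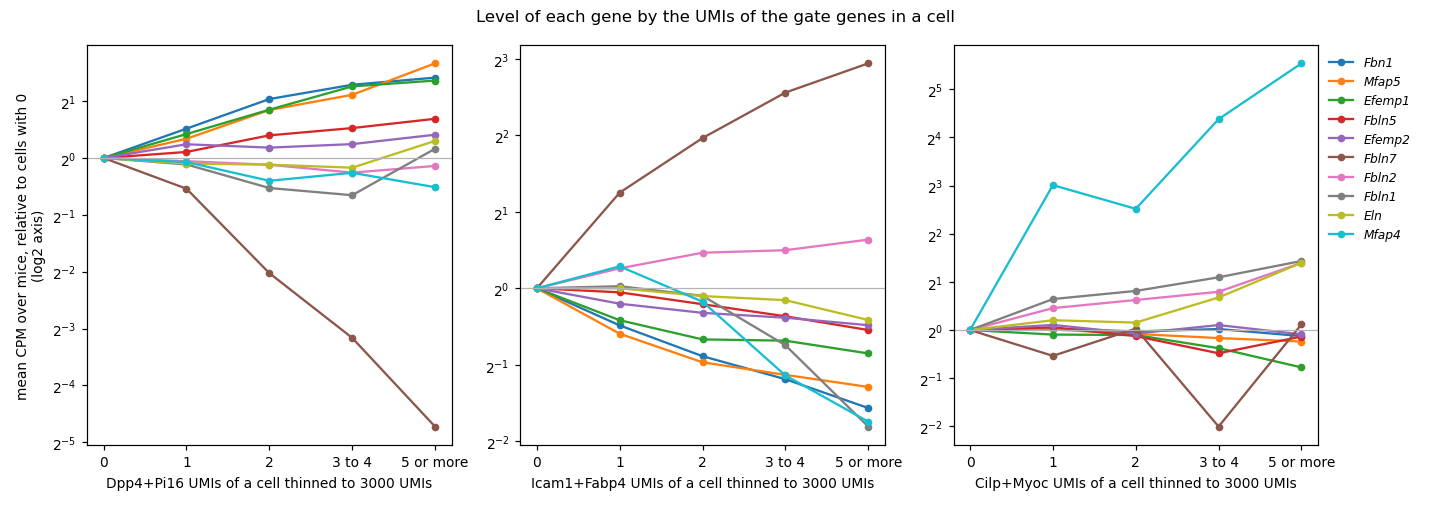
Mean level over mice of each gene in cells binned by their UMIs of Dpp4 and Pi16, Icam1 and Fabp4, or Cilp and Myoc, after thinning to 3000 UMIs; the y axis is relative to cells with 0 of those UMIs, on a log2 axis. Fbn1 and Mfap5 are higher with more Dpp4 and Pi16, Fbln7 with more Icam1 and Fabp4, and Mfap4 is highest at 5 or more Cilp and Myoc UMIs (195 CPM against 4.18 at 0).

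The Cilp/Myoc gate differed little from the progenitors that mostly contained it, with 2.61% of the tested genes called higher and 1.14% called lower, but 8 of the 10 members were called. Mfap4, Fbln7, Fbln1, Fbln2 and Eln were higher and Efemp1, Fbln5 and Mfap5 lower, and the median size of the members' log2 difference was 0.59 against 0.11 over all tested genes. The 2 groups shared cells, so they were not independent. Over the alternatives the log2 difference was 3.00 to 5.52 for Mfap4 and 1.64 to 5.64 for Fbln7. The count was also 8 when cells that met both definitions were counted in the Cilp/Myoc gate alone. The share of all genes called there is not given, so that 8 has no background to be set against. The member count was 5 without any 1 of the mice and 2 without mouse as a block. The genes called in those settings are given in the closing section. Mfap4, Fbln1 and Fbln2 were called without mouse 1, without mouse 2 and without mouse 3.

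Mfap4 was 104, 84.6 and 59.9 CPM in the Cilp/Myoc gate (3.06 ± 0.21 over progenitors, adjusted p = 3.03e-06), above the other 3 gates in every mouse. Fbln2 was 594, 467 and 551 CPM (0.85 ± 0.07, adjusted p = 2.22e-05), and Fbln1 was 518, 637 and 618 CPM (0.92 ± 0.12, adjusted p = 0.000788). Eln was 442, 326 and 600 CPM (0.64 ± 0.14, adjusted p = 0.0152; 0.205 without mouse 3), higher than in progenitors in 3 of 3 mice although the groups overlapped. Fbln7 rested on few molecules, 60, 55 and 5 UMIs or 12.5, 13.6 and 1.08 CPM, and was higher than in progenitors in 2 of 3 mice (2.23 ± 0.53, adjusted p = 0.0299; 0.082 without mouse 1 and 0.323 without mouse 2). Efemp1 was lower at 539, 773 and 613 CPM (-0.54 ± 0.10, adjusted p = 0.0070; 0.0778 without mouse 3), and the lower calls of Fbln5 (-0.34 ± 0.07) and Mfap5 (-0.31 ± 0.08) were each lost without 1 or more of the mice. Eln, Efemp1 and Fbln1 were each called in 14 of 16 alternatives, with highest adjusted p-values of 0.478, 0.607 and 0.195. Fbn1 (-0.19 ± 0.09, adjusted p = 0.381) and Efemp2 (-0.08 ± 0.06, adjusted p = 0.626) did not pass.

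Against PreAs the Cilp/Myoc gate was higher in 9 members and lower in Fbln7 (-3.91 ± 0.34), with 24% of all tested genes called higher and 23.4% lower. The largest of the 9 were Mfap4 (3.72 ± 0.25), Fbln1 (2.19 ± 0.13) and Fbn1 (1.65 ± 0.09). Against regulatory cells 7 members were higher and Fbln7 lower (-1.63 ± 0.48), with 18.5% of all tested genes called higher and 17.7% lower, and Fbln1 (0.28 ± 0.13, adjusted p = 0.108) and Efemp2 (0.12 ± 0.06, adjusted p = 0.173) did not pass. The lower call of Fbln7 against regulatory cells was lost without mouse 2 (adjusted p = 0.0825) or mouse 3 (0.067), with stricter gates (0.0797), in cells of 5000 to 15000 UMIs (0.0592), after thinning (0.285) and without mouse as a block (0.0872), and 10 of 16 alternatives kept an adjusted p under 0.05, 1 of them with the opposite sign. These comparisons share their Cilp/Myoc sums with the one above. When cells in several gates were left out, the 80, 30 and 29 cells that remained in the Cilp/Myoc gate had been chosen for few Dpp4 and Pi16 UMIs, and the values then differed: Fbn1 was lower than in progenitors by -1.37 ± 0.11 (adjusted p = 2.4e-07), Efemp1 lower than in PreAs by -0.82 ± 0.19 (adjusted p = 0.0117) and Fbln7 higher than in regulatory cells by 1.69 ± 0.47 (adjusted p = 0.0443).

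Within the Cilp/Myoc gate, the cells that entered through Cilp and those that entered through Myoc had unlike elastic fibre genes. This split was chosen after the values above were seen and is given without a test. Cells with at least 3 Cilp UMIs and 0 Myoc UMIs numbered 78, 27 and 52, and cells with at least 3 Myoc UMIs and 0 Cilp UMIs 453, 246 and 527. Eln was 1396, 977 and 2049 CPM in the Cilp cells and 239, 222 and 363 CPM in the Myoc cells. Mfap4 was 615, 665 and 326 CPM against 2.63, 0.94 and 7.48 CPM, the latter from 9, 3 and 28 UMIs. Fbln1 was 1251, 1468 and 1281 CPM against 313, 500 and 480 CPM, and Fbln2 was 1324, 742 and 1189 CPM against 390, 362 and 400 CPM. No value of the Cilp cells overlapped those of the Myoc cells in these 4 genes. The gate also held 104, 42 and 65 cells with UMIs of both Cilp and Myoc. Their means over mice lay between those of the Cilp and Myoc cells, at 781 CPM for Eln, 973 for Fbln1, 1009 for Fbln2 and 206 for Mfap4.

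The Myoc cells lay near the progenitor gate in Eln (274 ± 77 CPM against 287 ± 55, SD, n = 3) and Fbn1 (1771 ± 365 against 1960 ± 465). Some other members lay further from it. Fbln2 was 384 ± 20 CPM against 295 ± 8 and Fbln1 431 ± 102 against 312 ± 55. Efemp1 was 745 ± 139 CPM against 919 ± 111 and Mfap4 3.68 ± 3.39 against 9.84 ± 1.97. The Cilp cells kept Fbn1 at 1606 ± 462 CPM but had lower Efemp1, at 257, 406 and 253 CPM against 640, 903 and 691 CPM in the Myoc cells, and lower Mfap5, at 999, 1004 and 1242 CPM against 1529, 1877 and 1725 CPM. Lox, which encodes lysyl oxidase, was 697 ± 282 CPM in the Cilp cells and 162 ± 23 CPM in the Myoc cells. Tendon and fascia markers summed to 48.8 to 237 CPM in the Cilp cells and 16.0 to 27.8 CPM in the Myoc cells. Other lists differed as well: regulatory markers summed to 1445 to 2777 CPM in the Cilp cells against 311 to 477 CPM, PreA markers to 901 to 1563 against 443 to 668 CPM, and progenitor markers to 2423 to 2816 against 3668 to 4347 CPM. Mural markers summed to 26.8 to 39.7 CPM in the Cilp cells and 9.93 to 15.5 CPM in the Myoc cells. The part of these lists in the members' values was not tested.

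**Figure D4:**
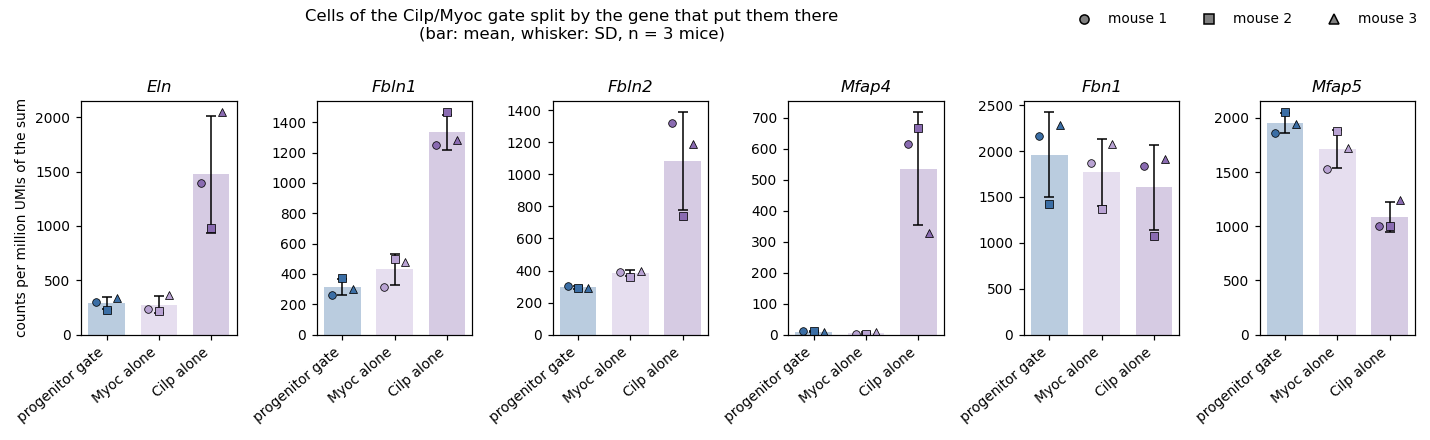
Level of 6 genes in the progenitor gate, in cells of the Cilp/Myoc gate with Myoc and no Cilp UMIs, and in cells with Cilp and no Myoc UMIs; the y axis is the CPM of the sum, bars are means, whiskers SDs and points the 3 mice. Eln, Fbln1, Fbln2 and Mfap4 are higher in every mouse in the Cilp cells (Eln 977 to 2049 CPM), and Mfap5 is lower there (999 to 1242 CPM).

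Mfap4 RNA sat in few cells. Counts of such cells were also added after the gate results were seen. In the Cilp/Myoc gate at 3000 UMIs per cell it was found in 6.97% of cells, where an even spread of the same UMIs (a Poisson distribution) would give 20.8%. Eln was found in 50.6% of these cells against 72.2% for an even spread and Fbln1 in 63.1% against 82.8%, while Fbln5 (25.6% against 26.2%) and Efemp2 (34.9% against 35.7%) were close to even. Of all kept cells, 89, 64 and 119 had at least 3 Mfap4 UMIs, and they held 81.0%, 85.3% and 77.7% of the Mfap4 UMIs of their mouse. Of these cells 46.1%, 23.4% and 24.4% lay in the Cilp/Myoc gate and 33.7%, 50% and 50.4% in no gate. The progenitor gate held 52.8%, 28.1% and 39.5% of them, including cells it shares with the Cilp/Myoc gate.

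These Mfap4 cells, most of which lay outside the Cilp/Myoc gate, had high Eln (1139 to 2246 CPM over mice), Fbln1 (1186 to 1524 CPM) and Fbln2 (983 to 1294 CPM), where the other cells of the Cilp/Myoc gate had 251 to 457, 460 to 572 and 439 to 522 CPM. Efemp1 was the reverse, at 244 to 285 CPM against 565 to 800 CPM. Mean Cilp over mice was 1262 CPM in the Mfap4 cells against 141 CPM in those other cells, while mean Myoc was 455 against 1359 CPM. Mean Icam1 was 210 against 18.6 CPM and mean Fabp4 78.4 against 9.84 CPM. The gate admits at most 1 UMI of Icam1 and Fabp4, and how many Mfap4 cells this limit kept out was not tested. The smooth muscle and pericyte genes Acta2, Myh11, Rgs5 and Notch3 reached at most 2.68 CPM in the Mfap4 cells. The other listed mural markers, Cspg4, Kcnj8 and Higd1b, were not counted in these cells. The tendon and fascia genes Fmod (149 ± 117 CPM, SD, n = 3), Tnmd (115 ± 64 CPM) and Thbs4 (114 ± 125 CPM) varied widely among the 3 mice there. Angptl7 was 56.4 ± 17.3 CPM, while Scx (3.06 ± 2.71 CPM) and Comp (3.45 ± 2.99 CPM) were low.

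The study also split ICAM1+ cells by CD44, in clusters and by surface protein in sorted cells, and kept the name PreA for the CD44-low ones. A related comparison on RNA was made within the PreA gate, which Fabp4 UMIs alone can satisfy. It set cells with at least 2 Cd44 UMIs (301, 348 and 337 cells) against cells with 0 (1570, 795 and 1188 cells). A cell with 0 Cd44 UMIs may still hold Cd44 RNA or protein. Fbn1 was 741, 514 and 782 CPM in the Cd44-high cells and 565, 374 and 605 CPM in the cells with 0 Cd44 UMIs, higher in 3 of 3 mice (0.50 ± 0.05, adjusted p = 4.99e-05). Mfap4 (1.07 ± 0.26, from 17 to 67 UMIs per mouse), Efemp1 (0.45 ± 0.07), Fbln1 (0.43 ± 0.10, higher in 2 of 3 mice) and Efemp2 (0.32 ± 0.08) were also higher and Fbln7 was lower (-0.27 ± 0.08, adjusted p = 0.0277), against 12.2% of the tested genes called higher and 6.39% called lower. Fbln7 was 117, 117 and 96.4 CPM in Cd44-high cells and 131, 166 and 127 CPM in cells with 0 Cd44 UMIs, without overlap, but its call held in 6 of 14 alternatives (highest adjusted p = 0.666). Eln, Fbln2, Fbln5 and Mfap5 did not pass.

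The number of calls in the Cd44 split was lower with thinned cells and without some single mice. Cd44-high cells were deeper, with medians of 8836, 13836 and 7558 UMIs against 7859, 12617 and 7096. The thinned setting also used a lower Cd44 cut and fewer counts, so it cannot show the part of depth. With cells thinned to 3000 UMIs and split at 1 Cd44 UMI, Mfap4 no longer passed the filter on low counts and 1 member was called, Fbn1 (0.30, adjusted p = 0.00575), and without mouse as a block 0 were called by edgeR, where 3 had an unadjusted p under 0.05. Without mouse 2 or mouse 3 the count was 3, and by DESeq2 it was also 3. Mfap4 was among the calls lost without mouse 2 (adjusted p = 0.316). The 8 dissociation genes summed to 9877 to 13653 CPM in the Cd44-high cells and 15906 to 19214 CPM in the others, with 7 of 8 called lower, and summed endothelial markers to 0.39 to 2.91 against 6.20 to 90.7 CPM. All 5 tested progenitor markers were higher in the Cd44-high cells (sums of 781 to 873 against 628 to 690 CPM) and 4 of 6 PreA markers lower (2765 to 3647 against 4018 to 4573 CPM). The part of these differences in the result was not tested. Leaving out the endothelial cells kept the count at 6, but these were at most 33 kept cells of a mouse.

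Other genes of the pathway followed no single direction. Of 15 genes of microfibrils and latent TGF-beta binding, 7 were higher and 7 lower in progenitors than in PreAs, with a median log2 difference of 0.09 against -0.01 over all tested genes. In this comparison, here and for the families below, 30.1% of all tested genes were called higher and 29.7% lower. The ones that differed most were Adamts17, a metalloprotease (-4.25 ± 0.39, at 1.68 ± 0.92 CPM in PreAs and 0.08 ± 0.05 CPM in progenitors), Adamtsl4, a fibrillin-binding protein (2.15 ± 0.10), and Emilin2, a glycoprotein of elastic fibres (2.07 ± 0.08, at 552 ± 71 CPM in progenitors and 135 ± 18 CPM in PreAs). In the Cilp/Myoc gate 5 of the 15 were higher and 1 lower than in progenitors, led by Adamtsl2 (log2 difference 2.1 ± 0.33), Ltbp2 (1.91 ± 0.47) and Fbn2 (1.22 ± 0.21), all at low levels (3.90 ± 1.42, 1.67 ± 0.61 and 6.26 ± 0.74 CPM). Of all tested genes 2.61% were called higher and 1.14% lower there.

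The lysyl oxidase family, which cross-links elastin and collagen, was split as well. Of its 5 members, Loxl4 (1.74 ± 0.15), Loxl1 (1.04 ± 0.08) and Loxl3 were higher in progenitors than in PreAs and Lox was lower (-1.26 ± 0.09, adjusted p = 3.06e-08). Lox was 116 ± 9 CPM in progenitors, 285 ± 33 in PreAs, 92.4 ± 2.5 in regulatory cells and 282 ± 44 in the Cilp/Myoc gate, and it was the only one of the 5 called between the Cilp/Myoc gate and progenitors (1.27 ± 0.09, adjusted p = 3.60e-06). Loxl1, which acts on elastin, was 597 ± 49 CPM in progenitors and 298 ± 18 CPM in PreAs.

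Proteases, integrins and ligands were counted in the same way. Of 8 proteases that can cleave elastin or microfibrils, 5 were tested, and Mmp3 (-1.93 ± 0.16), Ctsk (-1.89 ± 0.08) and Mmp14 (-0.49 ± 0.07) were lower in progenitors than in PreAs with none higher. Of 7 tested integrin genes, 4 were higher and 2 lower in progenitors, with Itgav at 129 ± 16 CPM against 63.8 ± 8.3 CPM (1.05 ± 0.07), Itgb6 at 2.54 ± 0.63 against 0.11 ± 0.15 CPM (4.64 ± 0.51) and Itga8 at 0.85 ± 0.37 against 8.13 ± 3.22 CPM (-3.20 ± 0.23). Of the 3 TGF-beta ligands, Tgfb2 was higher in progenitors (2.35 ± 0.11, at 91.3 ± 28.0 CPM against 18.0 ± 1.4 CPM) and Tgfb1 lower (-0.92 ± 0.12). Between the Cilp/Myoc gate and progenitors, 0 of the 15 proteases, integrins and ligands tested were called by edgeR, and Tgfb2, Itgb3 and Itgb5 had an unadjusted p under 0.05. With 2.61% of all tested genes called higher and 1.14% lower, a count of 0 among 15 does not set these genes apart.

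Over the 12 sums of 4 gates and 3 mice, with each mouse's mean taken off and log2 CPM as the measure, some members varied together. The fold changes came from the same sums, so the correlations describe the same differences again. Not all members with a shared direction above were correlated. Fbln2 and Fbln7, both lower in progenitors than in PreAs, had 0.05, and Fbln1 and Fbln2 had -0.16. Fbn1 and Mfap5 had a Pearson correlation of 0.99, Fbln5 followed both (0.93 with Fbn1 and 0.94 with Mfap5), and Fbln7 ran opposite to Fbn1 (-0.87). Fbln1 and Mfap4 had 0.86, Eln and Mfap4 0.77, and Fbln2 had no member above 0.54. The sums of the progenitor and Cilp/Myoc gates share cells, so these values describe 12 points that are not independent. Among 3307 other genes that reached 50 CPM in at least 1 gate, those most like Fbn1 were Lurap1l and Axl (both 1.00), those most like Mfap5 Plat and Emilin2 (both 1.00), and those most like Efemp1 Dsel and Pnpla8 (both 0.99). Trabd2b (0.98) and Gng11 (0.97) were most like Fbln7, Sfrp1 (0.97) and Apod (0.95) most like Mfap4, Sult1e1 (0.97) and Mbnl1 (0.96) most like Fbln1, and Lox (0.95) and Itm2a (0.90) most like Fbln2. For Fbln5 they were Tapbp (0.99) and Zranb1 (0.98), for Efemp2 Lrrc17 and Igfbp4 (both 0.99), and for Eln Sod3 (0.90) and Jak1 (0.89).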

How the data were processed

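The values the authors deposited are raw UMI counts per gene and barcode from CD31- CD45- cells of 3 mice, 1 droplet library (10x 3′ v2) each, made with Cell Ranger (4.0.0 in the file headers, 2.1.1 in the submitters' processing notes, build mm10). Total counts were 95899433, 79801002 and 100846072, and 52 to 81 barcodes were shared between libraries. Cells were filtered as the study states, gated on raw UMIs and summed per mouse, and no doublet caller was run. The 12 sums of 4 gates were fitted with edgeR 4.0.16 (filterByExpr, TMM, quasi-likelihood test, mouse as block), with Benjamini-Hochberg adjustment over all tested genes without the 8 gate genes (and Cd44 for its split), and called at an adjusted p under 0.05. The code was tested on simulated data. Mouse was a block because the sums of a mouse come from 1 animal: same-mouse sums deviated together, with mean correlations of 0.32, 0.55 and 0.43 and none below 0.14 over 12566 genes. Cells counted in several gates can add to these correlations. They also leave the 12 sums of the fit not fully independent. Members, lists and alternatives were chosen with earlier results of these data known. Named genes were all 10 members, up to 3 called genes per pathway list with the largest change in each of 2 comparisons, and the 2 genes most like each member. Fold changes depend on UMIs captured at 3′ ends, so levels are compared between classes and not between genes. Alternatives were DESeq2 1.42.0, other normalizations, filters, depths and gates, no block, and each mouse left out.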

Additional observations from a re-analysis of the deposited data

How the results depend on the processing

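Over all alternatives, 995 values of single members kept their direction and side of the threshold, 72 lost and 14 gained a call, and 18 changed sign. Without mouse as a block fewer genes were called: 3870 of 7517 (progenitor over PreA), 1488 of 3452 (regulatory over PreA), 3132 of 5925 (regulatory over progenitor), 78 of 471 with 2 members (Cilp/Myoc over progenitor; 650 genes and 7 members at an unadjusted p under 0.05), 3074 of 5952 (Cilp/Myoc over PreA), 2339 of 4539 (Cilp/Myoc over regulatory), and by edgeR 0 genes and 0 members for the Cd44 split (1208 and 3 at an unadjusted p under 0.05). In cells thinned to 3000 UMIs the counts of genes were 1890 (regulatory over PreA), 3253 (regulatory over progenitor), 3272 (Cilp/Myoc over PreA), 2175 (Cilp/Myoc over regulatory) and, for Cd44, 271 with 1 member. With cells in several gates left out, which leaves fewer cells, they were 1891, 841 (6 members) and 691 for Cilp/Myoc over progenitor, PreA and regulatory. Without the filter on low counts 940 genes were called for Cilp/Myoc over progenitor, and by DESeq2 802 genes and 3 members for Cd44. Leaving out 1 mouse gave 5 members in each case and 213 to 289 genes for Cilp/Myoc over progenitor, and 3 to 6 members and 1070 to 1666 genes for Cd44.

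These log2 values changed sign. Mfap4, progenitor over PreA, was -0.79 with cells in several gates left out and -0.83 with Cilp/Myoc cells counted in that gate alone (an alternative chosen after seeing the data). Fbn1, regulatory over PreA, near 0 throughout, was 0.065 with stricter gates, 0.073 after thinning, 0.058 in cells of 5000 to 15000 UMIs, 0.0049 with RLE normalization, 0.0059 by DESeq2 and -0.16 to 0.11 without 1 mouse. With cells in several gates left out, Cilp/Myoc over PreA was -0.080 for Fbln5 and -0.82 for Efemp1, and Cilp/Myoc over regulatory was -0.37 for Fbln1, 1.69 for Fbln7 and -0.41 for Efemp2. For Cd44, Eln was 0.00070 after thinning and -0.15 to 0.012 without 1 mouse, and Fbln2 was -0.0053 after thinning and -0.035 with library size only. The cause of these changes was not tested. Fbln7 in progenitors rested on few UMIs, and its difference from PreAs was called in 16 of 16 alternatives. Most Mfap4 UMIs of each mouse came from few cells. Leaving out endothelial cells, also chosen after seeing the data, changed no call, but these were at most 33 kept cells of a mouse.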
